A study of Mus musculus with 30 samples.

Results

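The response of mouse fibroblasts to 48 h of cycloheximide (CHX) was described from 6 bulk mRNA sequencing libraries, 3 of NIH/3T3 cells at 48 h and 3 at 0 h, out of 30 libraries in the series. NIH/3T3 is an immortalised line of mouse embryo fibroblasts. The libraries were chosen by line and time alone. The series also holds NIH/3T3 libraries at 1, 2 and 5 h and the same 5 times in CGR8, a mouse embryonic stem cell line, with 3 libraries a group. All groups carried the ROSA26 SLT knock-in, and every label, that of 0 h included, gives a CHX dose of 0.1 µg/mL. NIH/3T3 cells grew in DMEM with serum and CGR8 cells in N2B27 medium with 2i and LIF. The 0 h libraries are the only controls used here, so effects of the drug and of 48 h in culture cannot be told apart. The labels do not say whether replicates A, B and C came from separate cultures, and p-values measure only the spread between these libraries.

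Cycloheximide binds the large ribosomal subunit and stalls translation elongation. Within the first hours it is known for depleting short-lived proteins, repressors of transcription and mRNA decay factors among them, so that mRNAs of serum-response genes accumulate. Longer exposure also lowers proteins of longer half-life and slows cell division.

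The 6 libraries held between 18216993 and 30503109 counts. Values below are CPM, counts scaled to library size with the TMM (trimmed mean of M-values) factors, and log2 fold changes from edgeR's quasi-likelihood test over all 15 NIH/3T3 libraries. A gene was called at a Benjamini-Hochberg adjusted p under 0.05. Of 17 fibroblast markers, 13 reached 1 CPM, 9 were called higher at 48 h and 1, *Vim*, lower. Their summed level was 13900 to 15200 CPM at 0 h and 17700 to 18000 CPM at 48 h, while *Lum* was at 0, *Thy1* near 0, and *Dcn* and *Postn* under 1 CPM. Among markers of 9 other cell types, *Acta2*, *Klf4*, *Sox9*, *Lpl*, *Spp1*, *Runx2* and *Sox2* exceeded 20 CPM at both times, and *Krt14* did so at 0 h. *Des*, *Actg2*, *Myh3*, *Acta1*, *Cd14*, *Cd68*, *Cdh5* and *Cdh1* averaged between 1 and 20 CPM at 0 h, at 48 h or at both. Of these, *Des* and *Myh3* were called higher at 48 h and *Actg2*, *Acta1* and *Cdh5* lower. The other markers of those types, *Pou5f1*, *Adipoq*, *Myod1*, *Adgre1*, *Epcam* and *Pecam1* among them, stayed under 1 CPM. Mitochondrially encoded transcripts took 0.691 to 0.955% of counts at 48 h and 0.439 to 0.675% at 0 h. In bulk RNA, fewer cells of a type and less RNA per cell cannot be told apart.

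After 48 h, 7295 of 13941 genes tested differed from 0 h, which is 52.3% of them. Of these, 3728 were higher (26.7%) and 3567 lower (25.6%), and the median log2 fold change of all genes tested was -0.01. Changes of at least 2-fold were fewer, with 1017 genes higher (7.30%) and 711 lower (5.10%). The direction of change moved with transcript length. Genes with a known length were split into 5 bins. In the bin of longest transcripts, 46.7% were called higher and 12.7% lower, with a median log2 fold change of 0.31. In the bin of shortest, 11.2% were called higher and 27.8% lower, with a median of -0.24. All 3 libraries of 48 h showed this, with medians of the longest bin 0.51 to 0.54 above those of the shortest, against -0.14 to 0.08 among the 0 h libraries. Its part in the results below was not tested, but each library's trends on length and GC content were removed in a second fit, chosen after seeing the data. That fit called 3814 genes higher and 4123 lower, and its values are given below beside some of the lists.

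*Ranbp3l*, which encodes a nuclear export factor of SMAD proteins, had the largest rise among genes of at least 10 CPM. Its level was 0.296, 0.213 and 0.164 CPM at 0 h and 20.1, 15.6 and 19.4 CPM at 48 h, a change of 6.37 (SE 0.21, adjusted p = 6.3e-12) on the log2 scale. *Ces2e*, a carboxylesterase gene, was at 1.43, 1.32 and 1.61 CPM at 0 h and 16.2, 15.7 and 17.1 CPM at 48 h, a change of 3.47 (SE 0.18, adjusted p = 1.29e-09). Both genes were near or under 2 CPM in each 0 h library and above 15 CPM in each 48 h library. *Txnip*, an arrestin that binds thioredoxin and limits glucose uptake, stood at 20.7, 19.4 and 24.4 CPM at 0 h and 131, 132 and 124 CPM at 48 h, a change of 2.58 (SE 0.16, adjusted p = 6.1e-09). *Gas1*, named for its expression in growth-arrested fibroblasts and a co-receptor for hedgehog ligands, was at 25.6, 27.5 and 26.8 CPM at 0 h and 122, 121 and 125 CPM at 48 h, a change of 2.20 (SE 0.09, adjusted p = 1.14e-10). For these genes, too, all 48 h libraries lay above all 0 h libraries. Lack of overlap was a condition for naming the genes of largest change, here and below. It held for 9765 of the 13941 genes tested. *Txnip* and *Gas1*, like *Ogn* below, overlap a gene on the other strand, and reads of the pair may not have been separated. The nuclear long noncoding RNA *Neat1* rose with a wider spread, at 21.9, 14.8 and 17.9 CPM at 0 h and 129, 107 and 128 CPM at 48 h and a change of 2.74 (SE 0.37, adjusted p = 1.7e-05).

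The other genes with the largest rises were of several kinds. *Socs2*, a feedback inhibitor of cytokine receptors, rose by 2.88 (SE 0.18) on the log2 scale, and *Scn2a*, a sodium channel gene, by 2.65 (SE 0.17). *Serpinb1a*, an inhibitor of neutrophil proteases, rose by 2.52 (SE 0.16). *Fgf10*, a growth factor of mesenchymal cells, was at 3.16, 3.59 and 2.53 CPM at 0 h and 14.9, 15.4 and 15.6 CPM at 48 h, a rise of 2.31 (SE 0.14). *Ogn*, the gene of the small matrix proteoglycan osteoglycin, rose by 2.43 (SE 0.14). *Ddx58*, which encodes the RNA sensor RIG-I, rose by 2.25 (SE 0.18). None of the 0 h libraries overlapped the 48 h libraries in any of these genes, as the naming rule required.

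Among genes of at least 100 CPM, the imprinted zinc-finger gene *Peg3* was at 49.1, 52.4 and 42.0 CPM at 0 h and 202, 200.5 and 203 CPM at 48 h, a change of 2.08 (SE 0.15, adjusted p = 3.35e-08). *Dclk1*, a kinase of microtubules, was at 29.6, 33.2 and 24.2 CPM at 0 h and 119, 116 and 118 CPM at 48 h, a change of 2.02 (SE 0.14, adjusted p = 1.07e-08). *Slc5a3*, the inositol transporter, rose by 1.71 (SE 0.15), and *Lpp*, a focal adhesion protein, by 1.76 (SE 0.19). *Kmt2c*, a histone methyltransferase with a very long mRNA, rose by 1.71 (SE 0.28). Its level was 29.9, 42.1 and 22 CPM at 0 h and 99.8, 109.7 and 97.6 CPM at 48 h, with a wide spread at 0 h and no overlap.

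The largest fall among genes of at least 10 CPM was that of *Acsbg1*, an acyl-CoA synthetase of long-chain fatty acids. It was at 13.1, 12.3 and 13.7 CPM at 0 h and 0.188, 0.417 and 0.365 CPM at 48 h, a change of -5.34 (SE 0.26, adjusted p = 5.29e-10) on the log2 scale. *Prl2c2*, the secreted growth factor proliferin of dividing fibroblasts, was at 61.8, 66.4 and 59.7 CPM at 0 h and 5.98, 5.93 and 4.43 CPM at 48 h, a change of -3.51 (SE 0.14, adjusted p = 8.29e-11). In these genes every 48 h library lay far below the lowest 0 h library. *Gsta4*, a glutathione transferase that clears products of lipid peroxidation, was at 258, 262 and 280.3 CPM at 0 h and 52.6, 48.2 and 51.8 CPM at 48 h, a change of -2.39 (SE 0.14, adjusted p = 3.32e-09). The groups did not overlap in this gene either, as the naming rule required.

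Further falls were found in *Krt14*, a keratin (-2.85), *Arl5c* (-3.23), *Cela1* (-3.02), the long noncoding RNA *Wincr1* (-3.31) and *Pla2g7* (-2.41), all log2 fold changes with adjusted p of at most 1.65e-07. *Krt14* was at 32.0, 34.0 and 39.1 CPM at 0 h and 4.62, 5.01 and 4.95 CPM at 48 h. The other 5 epithelial markers were at or near 0, apart from *Cdh1* at 1 to 3 CPM, and the part of other cells in this fall was not tested. Among genes above 100 CPM at 0 h, the mucin-type membrane protein gene *Pdpn* fell by 1.62 (SE 0.12), and *Tes*, a focal adhesion protein, fell by 1.77 (SE 0.11). *Oaf* fell by 2.06 (SE 0.11), and *Pop1*, a subunit of RNase P and RNase MRP, fell by 1.56 (SE 0.09).

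**Figure D1:**
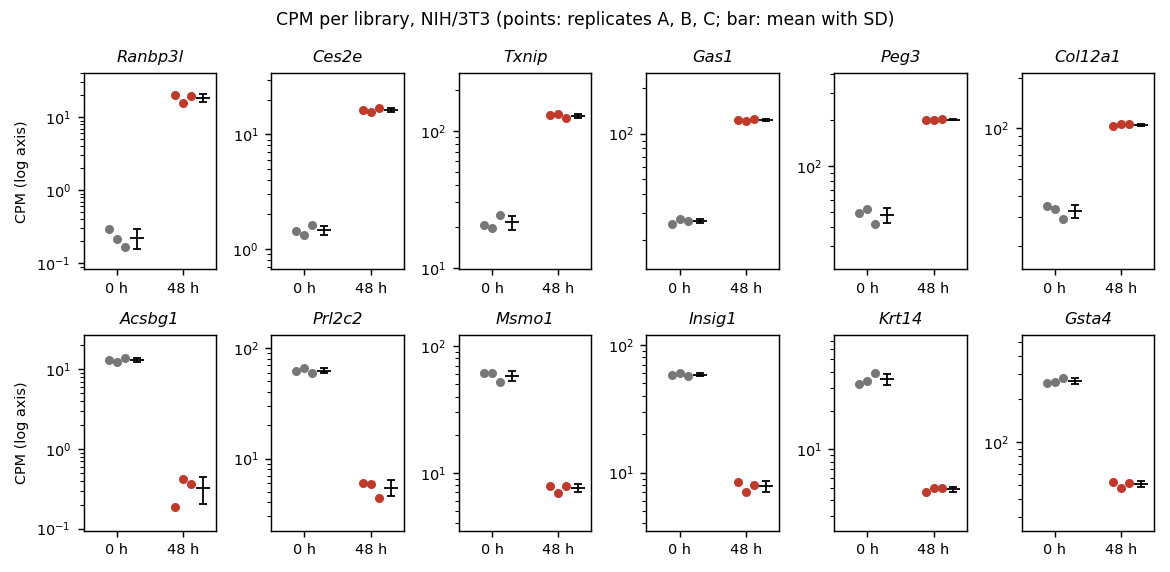
CPM per library on a log axis for 6 genes that rose (top) and 6 that fell (bottom) in NIH/3T3 cells; grey points are the 3 libraries at 0 h, red points the 3 at 48 h, and bars the mean with its SD. In each panel the groups do not overlap, which was a condition of the choice. Log2 fold changes run from 6.37 in *Ranbp3l* to -5.34 in *Acsbg1*.

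Sterol synthesis had the lowest median of the 44 gene lists described. Cells make cholesterol from acetyl-CoA through mevalonate, isoprenoids, squalene and lanosterol. Genes of the pathway are switched on by the transcription factor SREBP2, which INSIG proteins and sterols hold in the endoplasmic reticulum with its escort SCAP. Of 20 genes tested, 19 fell, 15 of them at least 2-fold, and none rose, with a median log2 fold change of -1.22 against -0.01 over all genes. The falls ran through all steps. All 6 genes from acetyl-CoA to mevalonate fell, as did all 4 from isoprenoids to squalene, and 9 of 10 from lanosterol to cholesterol. *Tm7sf2* was the exception, at 0.34 (SE 0.28), adjusted p = 0.333.

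*Fdps*, which makes farnesyl diphosphate, was at 79.8, 78.4 and 86.6 CPM at 0 h and 18.5, 18.4 and 19.4 CPM at 48 h, a change of -2.12 (SE 0.13, adjusted p = 3.59e-09). *Sqle*, squalene epoxidase, was at 191, 193 and 182 CPM at 0 h and 62.7, 60.5 and 59.1 CPM at 48 h, a change of -1.64 (SE 0.08, adjusted p = 5.7e-10). In the post-lanosterol steps, *Msmo1*, a sterol demethylase, was at 61.5, 61.8 and 52.4 CPM at 0 h and 7.93, 6.97 and 7.92 CPM at 48 h, a change of -2.94 (SE 0.16, adjusted p = 1.55e-09). Each of these 3 genes had all 48 h libraries below all 0 h libraries, which the naming rule required of *Sqle* and *Msmo1*.

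Uptake and sensing genes were less uniform. Of 9 tested, 5 fell and 1 rose, and 7 fell and 1 rose with length and GC trends removed. *Stard4*, a cytosolic sterol carrier, fell by 1.47 (SE 0.11). *Insig1*, itself a target of SREBP2, was at 57.9, 60.4 and 57.3 CPM at 0 h and 8.49, 7.01 and 8.08 CPM at 48 h, a change of -2.90 (SE 0.11, adjusted p = 1.81e-11), whereas *Insig2* rose by 0.64 (SE 0.09). *Srebf2*, the gene of SREBP2, fell by 1.01 (SE 0.11) and *Mbtps1*, a protease that cuts SREBPs, fell by 0.56 (SE 0.10). *Scap* (-0.21 (SE 0.13)), *Srebf1* (0.17 (SE 0.12)) and *Mbtps2* (-0.01 (SE 0.12)) were not called.

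**Figure D2:**
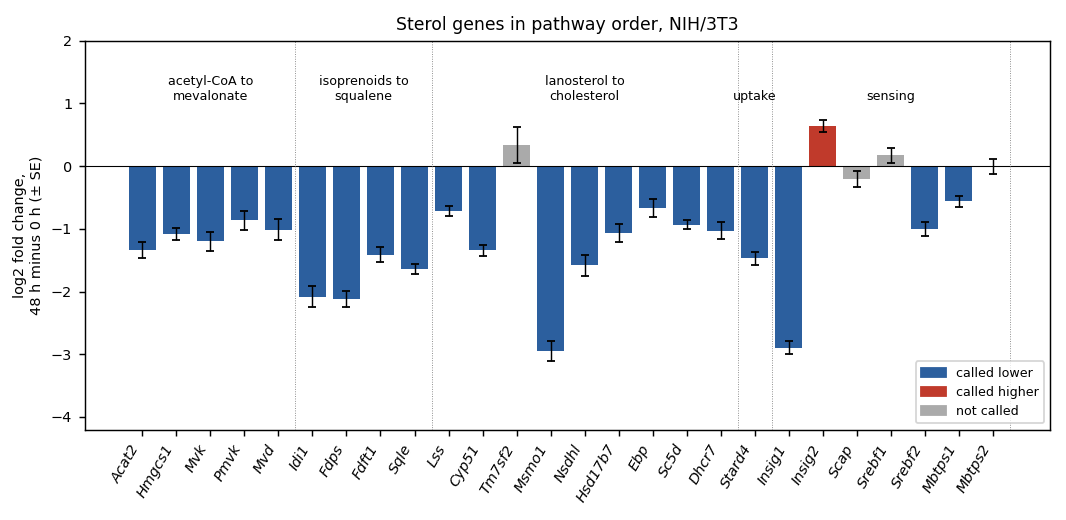
Log2 fold change of sterol genes at 48 h against 0 h in NIH/3T3 cells, in pathway order, with bars in blue for genes called lower, red for called higher and grey for not called, and error bars of 1 SE. All synthesis genes shown but *Tm7sf2* lie below 0, and of the genes shown *Msmo1* and *Insig1* lie lowest, at -2.94 and -2.90.

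The promoters of sterol genes are shown because these genes fell together. RefSeq windows of 300 bases, from 250 before to 50 after the start, were matched for 9547 of the genes tested, on GRCm38.p6. The CCAAT box, searched as CCAAT on both strands, was found in 13 of the 15 sterol synthesis genes with an entry (86.7%) and in 40.2% of all matched genes. A sterol regulatory element core, searched as TCACNCCAC on both strands, was found in 1 of the 15, *Hmgcs1*, and in 1.06% of all. No match of the one overlapped the other. The median log2 fold change was -1.06 in the 13 with a CCAAT match and -1.18 in those without. Below, capitals mark these matches in either orientation, in the gene's own direction: *Msmo1* (chr8:64733529-64733828, minus strand) with 3 CCAAT matches, *Idi1* (chr13:8885356-8885655, plus strand) with 2, and *Hmgcs1* (chr13:119690101-119690400, plus strand) with 4 and the sterol element core. Log2 fold changes were -2.94, -2.08 and -1.08. A match describes these letters and is not evidence of binding.
Msmo1: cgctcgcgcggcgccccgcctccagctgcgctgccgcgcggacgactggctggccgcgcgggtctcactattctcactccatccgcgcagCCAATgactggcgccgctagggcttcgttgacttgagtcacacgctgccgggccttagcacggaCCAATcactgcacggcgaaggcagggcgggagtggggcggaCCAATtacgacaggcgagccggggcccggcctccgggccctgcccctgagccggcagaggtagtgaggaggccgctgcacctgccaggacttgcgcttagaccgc
Idi1: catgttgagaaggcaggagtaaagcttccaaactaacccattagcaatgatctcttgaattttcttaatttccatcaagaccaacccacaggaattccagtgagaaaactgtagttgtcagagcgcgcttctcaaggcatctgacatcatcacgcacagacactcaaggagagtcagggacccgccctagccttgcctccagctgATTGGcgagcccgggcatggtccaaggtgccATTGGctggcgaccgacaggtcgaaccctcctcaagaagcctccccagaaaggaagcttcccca
Hmgcs1: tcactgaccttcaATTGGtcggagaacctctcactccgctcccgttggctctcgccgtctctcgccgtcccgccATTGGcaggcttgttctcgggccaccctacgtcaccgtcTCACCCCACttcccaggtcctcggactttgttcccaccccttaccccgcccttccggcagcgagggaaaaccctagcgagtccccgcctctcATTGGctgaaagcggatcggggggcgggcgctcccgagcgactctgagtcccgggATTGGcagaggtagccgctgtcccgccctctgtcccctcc

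Fatty acid synthesis and desaturation genes also fell for the most part, with 10 of 13 lower, 2 higher (1 without 0 h replicate A, 0 h replicate C or 48 h replicate C) and a median of -0.49. All 7 tested genes of elongation and desaturation were lower. *Scd2*, a stearoyl-CoA desaturase, was at 1191, 1145 and 1069 CPM at 0 h and 464, 444 and 434 CPM at 48 h, a change of -1.34 (SE 0.11, adjusted p = 1.35e-07). *Acly*, which makes cytosolic acetyl-CoA, fell by 1.07 (SE 0.10), and *Elovl6* fell by 0.95 (SE 0.09). Fatty acid oxidation moved the other way in part, with 6 of 12 genes higher and 2 lower. *Cpt1a*, which admits fatty acids to mitochondria, was at 35.7, 30.6 and 31.1 CPM at 0 h and 94.2, 89.7 and 88.6 CPM at 48 h, a change of 1.49 (SE 0.13, adjusted p = 1.88e-07). *Dgat2*, the last enzyme of triglyceride synthesis, fell by 1.35 (SE 0.14).

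The proteasome, the protease that degrades ubiquitin-tagged proteins, is built from a 20S core and a 19S cap. Of 32 subunit genes, 29 fell and none rose, with a median of -0.58. All 14 core genes were lower, as were 4 of 6 cap ATPases and 11 of 12 other cap subunits. *Psma7*, a core subunit, was at 396, 417 and 406 CPM at 0 h and 185, 189 and 188 CPM at 48 h, a change of -1.12 (SE 0.16, adjusted p = 3.4e-05). *Psmd3*, of the cap, was at 432, 391 and 473 CPM at 0 h and 239, 234 and 233 CPM at 48 h, a change of -0.88 (SE 0.09, adjusted p = 1.26e-06). *Psmc5* (-0.27 (SE 0.12)), *Psmc6* (-0.30 (SE 0.13)) and *Psmd13* (-0.37 (SE 0.16)) were not called. Only *Psma7* passed 2-fold. Assembly factors and activators followed with smaller changes, 7 of 15 lower and none higher, or 4 lower without 0 h replicate C, 48 h replicate A or 48 h replicate B. Subunit transcripts were short, with a median of 1561 bases against 2837.5 over all genes. With length and GC trends removed, 29 of 32 were still called lower, and the median was -0.39.

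Genes of the CCT chaperonin and of heat shock chaperones, the mitochondrial *Hspe1* among the latter, mostly fell as well. The 8 genes of the CCT chaperonin, which folds actin and tubulin, were all lower, from -0.68 in *Tcp1* to -0.38, with a median of -0.56. *Cct2* was at 1414, 1426 and 1429 CPM at 0 h and 913, 924 and 933 CPM at 48 h, a change of -0.62 (SE 0.09, adjusted p = 4.22e-05). Among heat shock chaperones 14 of 18 were lower and 1 higher, with a median of -0.60. *Hsp90aa1*, the inducible HSP90, was at 2098, 2163 and 1926 CPM at 0 h and 1127, 1133 and 1171 CPM at 48 h, a change of -0.85 (SE 0.08, adjusted p = 6.52e-07), and of its co-chaperones, *Ahsa1* fell by 0.91 (SE 0.10) and *Stip1* fell by 0.83 (SE 0.09). Tubulin genes were lower in 6 of 11 and higher in none. *Tuba4a* was the largest of these falls at -0.90 (SE 0.15).

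Genes of the endoplasmic reticulum were divided. Of 15 chaperone genes 7 were lower and 1 higher, with *Calr*, calreticulin, at -0.54 (SE 0.13). Of 10 sensors and degradation factors 4 were higher and none lower. These counts stand beside 26.7% higher and 25.6% lower over all genes tested. Over both groups, 5 genes higher became 3 without 0 h replicate A, 0 h replicate C or 48 h replicate B, and 7 lower became 4 without 0 h replicate C, 48 h replicate A or 48 h replicate C and 3 without 48 h replicate B. *Xbp1*, a transcription factor of the unfolded protein response, was at 105, 98.5 and 98.9 CPM at 0 h and 169, 161 and 156 CPM at 48 h, a change of 0.69 (SE 0.08, adjusted p = 5.1e-06). *Eif2ak3*, the sensor kinase PERK, rose by 0.60 (SE 0.11). Of 6 ubiquitin genes tested, 4 were lower and none higher, and 2 were lower without 0 h replicate A or without 0 h replicate C.

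Genes that build ribosomes fell. Of 48 genes of RNA polymerase I and ribosome biogenesis, 35 were lower and 3 higher, with a median of -0.42. *Nhp2*, of the snoRNPs that guide pseudouridylation, was at 263, 262 and 293 CPM at 0 h and 95.8, 93.1 and 102 CPM at 48 h, a change of -1.49 (SE 0.15, adjusted p = 6.77e-07). Of nucleolar factors of the large subunit, *Nop16* fell by 1.33 (SE 0.12) and *Mrto4* fell by 1.21 (SE 0.15). Mitochondrial ribosomal proteins were lower in 25 of 37 and higher in 1 (none without any 1 of the 6 libraries), with a median of -0.44. *Mrpl12* was at 194, 225 and 235 CPM at 0 h and 97.7, 94.0 and 101 CPM at 48 h, a change of -1.16 (SE 0.14, adjusted p = 4.41e-06).

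Of 77 cytosolic ribosomal protein genes, 25 were lower and none higher, with a median of -0.30. The 25 calls make 32.5% of the list, where 25.6% of all genes tested were lower and 26.7% higher. The ribosomal protein calls were unstable. They numbered 6 without 0 h replicate C, 14, 10 and 12 without 48 h replicates A, B and C, and 68 when only the 0 h and 48 h libraries were fitted. Ribosomal protein transcripts had a median length of 937 bases, and with length and GC trends removed 8 were lower and 3 higher. *Rpl13a* fell by 1.20 (SE 0.16) and *Fau* fell by 0.62 (SE 0.15). *Rpl13a* hosts several small nucleolar RNAs and has many processed copies, so its counts, at 30.4, 27.0 and 29.8 CPM at 0 h and 12.3, 12.4 and 13.4 CPM at 48 h, are uncertain.

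Of 46 translation factors, 24 were lower and 2 higher, or 1 higher without any 1 of the 6 libraries. *Eif4ebp1*, the inhibitor of cap-dependent initiation, was at 295, 247 and 319.5 CPM at 0 h and 111, 114 and 111 CPM at 48 h, a change of -1.36 (SE 0.15, adjusted p = 1.75e-06). *Eif5*, which triggers GTP hydrolysis at the start codon, fell by 1.31 (SE 0.19), and *Eif2b1* fell by 0.80 (SE 0.10). Cytosolic aminoacyl-tRNA synthetases, which charge tRNAs with amino acids, were lower in 17 of 22 and higher in 1, or in none without any 1 of the libraries other than 0 h replicate C. *Cars* was at 127, 123 and 138 CPM at 0 h and 62.5, 59.0 and 59.0 CPM at 48 h, a change of -1.10 (SE 0.08, adjusted p = 2.73e-08). *Gars* fell by 0.84 (SE 0.11).

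Genes of the ATF4 programme, which supplies amino acids under stress, were lower in 20 of 34 and higher in 6, with a median of -0.60. The enzymes for serine, asparagine and one-carbon units fell in 10 of 13 and rose in none, with a median of -0.86. Amino acid transporters fell in 5 of 9. *Slc7a11*, the cystine importer, was at 26.5, 33.9 and 25.3 CPM at 0 h and 8.42, 7.93 and 7.55 CPM at 48 h, a change of -1.84 (SE 0.13, adjusted p = 1.49e-08). *Slc7a5*, which carries leucine, was at 419, 366 and 422 CPM at 0 h and 141, 142 and 136 CPM at 48 h, a change of -1.53 (SE 0.12, adjusted p = 6.83e-08). The stress regulators were divided, with 5 higher and 5 lower of 12, and *Ppp1r15a*, which restores translation after stress, fell by 1.33 (SE 0.15). NRF2 antioxidant genes, which share *Slc7a11* and hold *Gsta4*, were lower in 15 of 20 and higher in none. *Taldo1*, of the pentose phosphate pathway, fell by 1.27 (SE 0.12).

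Promoters of the ATF4 programme are shown because 20 of its 34 genes fell, though 6 rose. The ATF4 element, searched as TGATGNAA on both strands, was found in 10 of the 29 members with an entry (34.5%) and in 2.14% of all matched genes. The median log2 fold change was -0.81 in the members with a match and -0.30 in those without. *Slc7a11* (chr3:50443564-50443863, minus strand) held 2 matches that face each other and *Asns*, asparagine synthetase (chr6:7693160-7693459, minus strand, log2 fold change -1.19), held 1. Capitals mark them.
Slc7a11: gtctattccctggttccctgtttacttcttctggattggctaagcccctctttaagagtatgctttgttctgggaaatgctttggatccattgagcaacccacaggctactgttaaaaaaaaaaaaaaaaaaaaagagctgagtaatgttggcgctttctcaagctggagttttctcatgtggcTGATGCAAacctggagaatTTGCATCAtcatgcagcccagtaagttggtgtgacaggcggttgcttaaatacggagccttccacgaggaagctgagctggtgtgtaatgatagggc
Asns: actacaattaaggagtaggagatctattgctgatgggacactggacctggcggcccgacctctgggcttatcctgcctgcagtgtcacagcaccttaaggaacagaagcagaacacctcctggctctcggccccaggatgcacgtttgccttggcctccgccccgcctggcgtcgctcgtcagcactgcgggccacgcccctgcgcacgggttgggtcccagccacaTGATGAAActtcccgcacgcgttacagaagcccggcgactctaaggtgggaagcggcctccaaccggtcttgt

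The heat shock element, searched as GAANNTTC, which reads the same on both strands, was found in 6 of 13 heat shock chaperone genes with an entry (46.2%) and in 5.72% of all. It is shown for *Hspe1*, the mitochondrial co-chaperonin (chr1:55087898-55088197, plus strand, log2 fold change -0.81), with its match in capitals.
Hspe1: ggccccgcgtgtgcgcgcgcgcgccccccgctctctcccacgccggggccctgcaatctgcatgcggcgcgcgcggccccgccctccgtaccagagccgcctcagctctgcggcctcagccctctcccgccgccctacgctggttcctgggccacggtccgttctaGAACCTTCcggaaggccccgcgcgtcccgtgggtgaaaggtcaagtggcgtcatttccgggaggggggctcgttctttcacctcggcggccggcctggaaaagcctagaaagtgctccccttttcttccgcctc

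Genes of DNA replication and S phase fell in 36 of 44, with none higher and a median of -0.72. Of 19 licensing and helicase genes, 17 were lower, and of 25 genes of synthesis and nucleotide supply, 19. *Pcna*, the sliding clamp of DNA polymerases, was at 122, 119.6 and 116 CPM at 0 h and 51.6, 46.2 and 52.5 CPM at 48 h, a change of -1.25 (SE 0.10, adjusted p = 5.35e-08). *Rpa2*, of the single-strand binding complex, fell by 1.24 (SE 0.09). *E2f2*, a transcription factor of S-phase genes, was at 7.75, 6.23 and 6.31 CPM at 0 h and 1.99, 2.17 and 1.30 CPM at 48 h, a change of -1.86 (SE 0.19, adjusted p = 1.13e-06). An E2F-like sequence, searched as TTTNNCGC on both strands, was found in 14 of 35 members with an entry (40%) and in 8.92% of all. The median change was -0.62 with a match and -0.75 without. It is shown for *Rfc3*, of the clamp loader (chr5:151651159-151651458, minus strand, log2 fold change -0.98), with its 2 matches in capitals.
Rfc3: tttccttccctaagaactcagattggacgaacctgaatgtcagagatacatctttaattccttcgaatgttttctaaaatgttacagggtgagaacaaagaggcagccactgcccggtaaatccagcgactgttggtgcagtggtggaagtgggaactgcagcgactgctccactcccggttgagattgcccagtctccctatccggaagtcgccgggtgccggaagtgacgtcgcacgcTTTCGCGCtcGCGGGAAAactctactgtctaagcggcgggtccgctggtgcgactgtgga

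Genes of G2 and mitosis changed less uniformly, with 16 of 40 lower and 4 higher, or 1 higher without 0 h replicate A or without 0 h replicate C. Kinases and cyclins were lower in 11 of 17 and higher in none, with a median of -0.38. Spindle and kinetochore genes were lower in 5 of 23 and higher in 4, with a median of -0.06. Of all genes tested, 25.6% were lower and 26.7% higher. *Mybl2*, the B-MYB factor, was at 106, 95.7 and 112 CPM at 0 h and 39.4, 39.7 and 39.9 CPM at 48 h, a change of -1.40 (SE 0.11, adjusted p = 5.37e-08). *Cdk1*, the kinase of mitotic entry, was at 359, 359 and 364 CPM at 0 h and 224, 222 and 218 CPM at 48 h, a change of -0.70 (SE 0.09, adjusted p = 1.44e-05). *Cenpa*, the centromeric histone, fell by 1.06 (SE 0.13). All 7 tested CDK inhibitors and pocket proteins rose, each less than 2-fold, with a median of 0.51. Together with the G1 cyclins, 9 of 14 rose and 2 fell (1 without 48 h replicate C), and 7 rose and 1 fell with length and GC trends removed. *Cdkn1b*, the inhibitor p27, was at 35.1, 41.9 and 35.6 CPM at 0 h and 62.8, 66.3 and 62.7 CPM at 48 h, a change of 0.77 (SE 0.10, adjusted p = 1.72e-05). *Ccnd1*, cyclin D1, was at 655, 658 and 635 CPM at 0 h and 309, 328 and 326 CPM at 48 h, a change of -1.01 (SE 0.09, adjusted p = 1.23e-07), and *Ccng2* rose by 0.63 (SE 0.13).

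Histone genes gave few tested members, 8 of 14 in the table, and 4 rose. mRNAs of replication-dependent histones carry no poly(A) tail and are poorly sampled by mRNA libraries. *Hist1h2bc* rose by 2.08 (SE 0.25) and *Hist1h1c* by 1.72 (SE 0.24), both under 10 CPM. *H1f0*, a polyadenylated linker histone of quiescent cells, was at 116, 111 and 120.2 CPM at 0 h and 352, 345 and 342 CPM at 48 h, a change of 1.58 (SE 0.08, adjusted p = 5.29e-10). Of 23 p53 targets 12 rose and 3 fell. *Trp53inp1* was at 10.3, 11.8 and 8.42 CPM at 0 h and 36, 41.7 and 37.4 CPM at 48 h, a change of 1.92 (SE 0.17, adjusted p = 1.76e-07), *Fas*, the death receptor, rose by 1.36 (SE 0.13), and *Tigar* fell by 0.95 (SE 0.12). Of 18 FOXO targets, which include *Txnip* and *Trp53inp1*, 9 rose and 5 fell. *Sesn3*, an inhibitor of mTORC1 signalling, was at 18.9, 23.0 and 16.4 CPM at 0 h and 54.7, 52.7 and 52.8 CPM at 48 h, a change of 1.46 (SE 0.12, adjusted p = 1.08e-07).

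**Figure D3:**
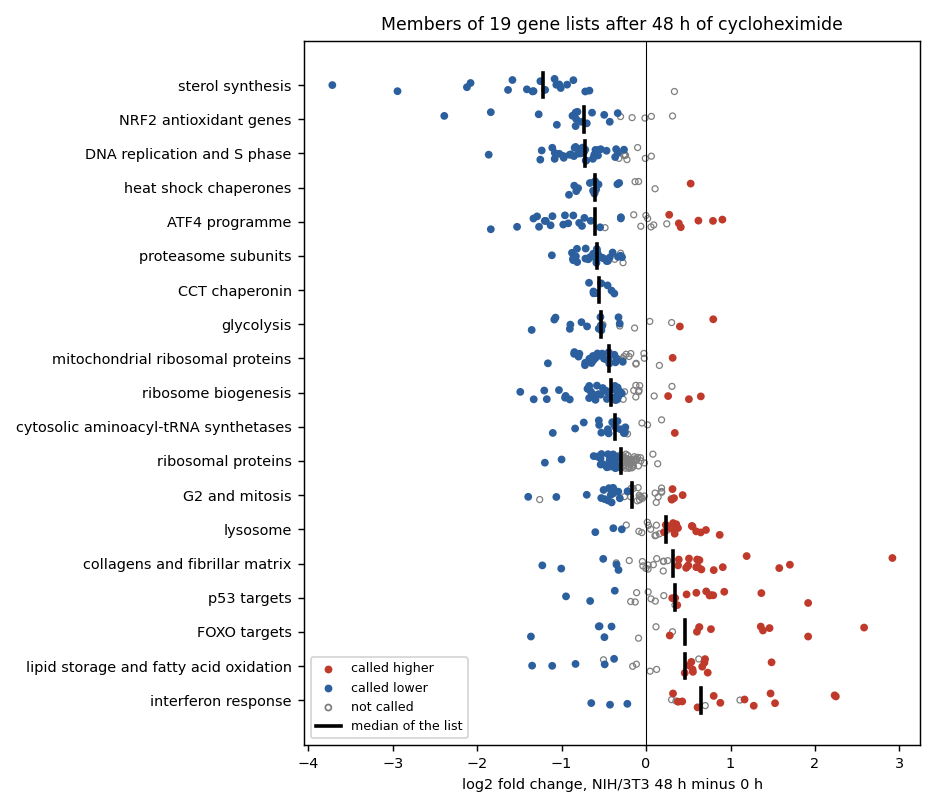
Log2 fold change at 48 h against 0 h in NIH/3T3 cells for the tested members of 19 gene lists; red points were called higher, blue lower and open points not called, and black bars are list medians. The medians run from -1.22 in sterol synthesis to 0.66 in the interferon response. 1 lysosome gene with no count at 48 h is not drawn.

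Matrix genes of fibroblasts rose more often than they fell, 18 against 5 of 36. Of 16 collagen genes, 9 rose and 1 fell, with a median of 0.43. *Col1a1*, the main chain of fibrillar collagen I, was at 3224, 2727 and 3272 CPM at 0 h and 4630, 4633 and 4760 CPM at 48 h, a change of 0.60 (SE 0.16, adjusted p = 0.00378). *Col12a1*, which binds collagen fibrils, was at 34.7, 33.1 and 29.2 CPM at 0 h and 104, 106 and 106 CPM at 48 h, a change of 1.70 (SE 0.17, adjusted p = 9.29e-07). *Col3a1* and *Col5a1* rose by 0.51 (SE 0.13) and 0.80 (SE 0.13), and *Col5a3* fell by 1.0 (SE 0.16). The basement membrane chains *Col4a1* (-0.00 (SE 0.13)) and *Col4a2* (0.02 (SE 0.13)) were not called. Of 20 matrix glycoproteins and proteoglycans 9 rose and 4 fell, and *Bgn*, biglycan, was at 5.24, 5.00 and 6.41 CPM at 0 h and 17.1, 16.9 and 15.8 CPM at 48 h, a change of 1.58 (SE 0.14, adjusted p = 1.96e-07).

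Collagen and matrix transcripts were long, with a median of 5838.5 bases. With length and GC trends removed, 14 of the 36 genes of both groups rose and 9 fell, against 18 and 5, and their median moved from 0.32 to 0.07. Among enzymes of collagen processing, 5 of 15 rose and 6 fell, with a median of -0.07 and changes from -1.15 to 1.60. Those that rose included the cross-linking oxidases *Loxl3*, at 43.6, 44.5 and 46.1 CPM at 0 h and 136, 136 and 136 CPM at 48 h and a change of 1.60 (SE 0.10, adjusted p = 6.06e-09), and *Loxl1*, which rose by 1.24 (SE 0.10). *Pcolce*, an enhancer of procollagen cleavage, rose by 1.18 (SE 0.08). Matrix proteases rose in 4 of 10 and fell in 1, with changes from -1.06 to 1.44. These counts and those of collagen processing stand beside 26.7% higher and 25.6% lower over all genes tested. The membrane protease *Mmp14* was at 187, 162 and 178 CPM at 0 h and 388, 386 and 392 CPM at 48 h, a change of 1.14 (SE 0.10, adjusted p = 2.88e-07), and *Mmp19* rose by 1.44 (SE 0.15). The growth factor receptors *Pdgfra* and *Pdgfrb*, 2 of the fibroblast markers, rose by 1.08 (SE 0.12) and 1.12 (SE 0.13).

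Targets and inhibitors of TGF-beta and BMP signalling rose in 7 of 12 and fell in 2, with a median of 0.73. *Id2*, a BMP target that inhibits bHLH factors, was at 32.7, 33.8 and 31.3 CPM at 0 h and 102, 108 and 102 CPM at 48 h, a change of 1.67 (SE 0.11, adjusted p = 1.49e-08), and *Ltbp2*, a latent TGF-beta binding protein, rose by 1.57 (SE 0.14). Among 7 ligands, receptors and antagonists 3 rose and 1 fell. Over both groups, 10 of 19 rose and 3 fell, and 10 rose and 7 fell with length and GC trends removed. Contractile genes rose in 7 of 22 and fell in 5 (3 without 0 h replicate C), with a median of 0.105. Over all genes tested, 26.7% rose and 25.6% fell. The largest changes in this list were those of *Mylk*, *Filip1l* and *Vcl*, which rose by 1.44 (SE 0.20), 1.25 (SE 0.16) and 1.02 (SE 0.13). Targets of YAP and TEAD rose in 10 of 19 and fell in 6, where *Tead4* fell by 1.27 (SE 0.09) and *Gadd45b* fell by 1.29 (SE 0.14). Their median of 0.30 became 0.04 with those trends removed, with 9 higher and 5 lower. *Notch1*, a receptor for Delta and Jagged ligands, was at 20.6, 22.4 and 17.5 CPM at 0 h and 77.5, 77.8 and 77.7 CPM at 48 h, a change of 1.95 (SE 0.23, adjusted p = 3.67e-06), and *Jag1* rose by 0.78 (SE 0.14). The hedgehog co-receptor *Cdon* rose by 1.09 (SE 0.13) and *Gli3* by 0.83 (SE 0.17). Of 6 Notch genes tested 3 rose and 1 fell, and of 7 hedgehog genes 3 rose and 1 fell.

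Genes of the interferon response rose in 12 of 20, 6 of them at least 2-fold, and fell in 3, with a median of 0.66. Besides *Ddx58*, *Xaf1* was at 4.25, 3.97 and 4.01 CPM at 0 h and 12.7, 11.2 and 11.2 CPM at 48 h, a change of 1.53 (SE 0.14, adjusted p = 1.96e-07), and *Irf7*, near or under 1 CPM in each library, rose by 2.23 (SE 0.37). *Cxcl10*, a chemokine that interferon induces, was instead lower, at 2.47, 2.43 and 1.64 CPM at 0 h and 0.413, 0.543 and 0.365 CPM at 48 h and a change of -2.27 (SE 0.25, adjusted p = 1.85e-06). NF-kB and cytokine genes rose in 7 of 24 and fell in 8, or in 5 without 0 h replicate A or 48 h replicate A. Over all genes tested, the shares were 26.7% and 25.6%. *Ptgs2*, cyclooxygenase 2, was at 559, 617 and 471 CPM at 0 h and 189, 201 and 209.9 CPM at 48 h, a change of -1.46 (SE 0.21, adjusted p = 3.63e-05), and the chemokine *Ccl7* rose by 1.49 (SE 0.13). Immediate-early genes fell in 16 of 37 and rose in 8. *Hbegf*, a ligand of the EGF receptor, was at 54.1, 52.4 and 50.2 CPM at 0 h and 12.2, 12.9 and 14.1 CPM at 48 h, a change of -2.0 (SE 0.11, adjusted p = 1.93e-09), and *Egr3* fell by 2.25 (SE 0.36). *Egr1* was at 125, 108 and 118 CPM at 0 h and 109, 105 and 108 CPM at 48 h, with overlapping groups and a change of -0.13 (SE 0.16, adjusted p = 0.535). With length and GC trends removed it was called lower, at -0.26 (adjusted p = 0.0455).

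Lysosomal genes rose in 15 of 31 (19 with length and GC trends removed) and fell in 4, among them *Ctsf*, with 2 or 3 counts in each 0 h library and none at 48 h, while 6 of 9 membrane and proton pump genes rose with none lower. *Tpp1*, a lysosomal peptidase, was at 77.1, 70.9 and 70.9 CPM at 0 h and 133, 136 and 131 CPM at 48 h, a change of 0.87 (SE 0.08, adjusted p = 1.88e-07), and *Lamp2* rose by 0.71 (SE 0.10). Autophagy genes rose in 5 of 26, or in 3 without 0 h replicate B, 48 h replicate A or 48 h replicate B, and fell in 9. With length and GC trends removed, 3 rose and 11 fell. Of all genes tested, 26.7% rose and 25.6% fell in the main fit. *Bnip3*, a receptor for mitophagy, was at 15.3, 14.5 and 14.7 CPM at 0 h and 5.53, 6.47 and 6.15 CPM at 48 h, a change of -1.30 (SE 0.11, adjusted p = 1.12e-07). The list's median, -0.04, turned to 0.04 with scaling by library size alone, and gives no direction. Glycolytic genes were lower in 14 of 21 and higher in 2 (1 without 0 h replicate B), with a median of -0.53. *Pfkl*, a phosphofructokinase, was at 163, 152 and 169 CPM at 0 h and 65.6, 60.8 and 62.9 CPM at 48 h, a change of -1.35 (SE 0.13, adjusted p = 4.67e-07), and *Tpi1* fell by 1.09 (SE 0.16).

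Respiratory chain subunits showed no common direction. Of 40 tested, 6 were higher and 10 lower, and with length and GC trends removed 15 were higher and 8 lower. *Sdha*, the flavoprotein of complex II, was at 243, 223 and 237 CPM at 0 h and 484, 464 and 465 CPM at 48 h, a change of 1.01 (SE 0.08, adjusted p = 6.89e-08), while *Sdhd* of the same complex fell by 0.78 (SE 0.12). *Cycs*, cytochrome c, fell by 0.83 (SE 0.14). Clock genes rose in 5 of 17 and fell in 6, where 26.7% of all genes tested rose and 25.6% fell. *Ciart*, a repressor of the clock, was at 4.64, 3.71 and 4.50 CPM at 0 h and 0.564, 0.501 and 0.521 CPM at 48 h, a change of -3.0 (SE 0.21, adjusted p = 2.27e-08), *Tef* fell by 1.08 (SE 0.09), and *Rora* rose by 1.32 (SE 0.18). Factors of nonsense-mediated decay rose in 4 of 14 and fell in 5, where *Upf2* rose by 0.98 (SE 0.13) and *Eif4a3* fell by 0.73 (SE 0.10). Their counts, too, stand beside the 26.7% and 25.6% of all genes.

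The late state was next set against 5 h, the last early time, a comparison that uses no 0 h library. Between 5 and 48 h, 9140 of 13941 genes differed (65.6%), with 4757 higher at 48 h (34.1%) and 4383 lower (31.4%). Short and long transcripts again differed, with medians of -0.54 in the shortest bin and 0.53 in the longest. Proteasome subunits were lower at 48 h than at 5 h in 30 of 32, CCT genes in 8 of 8, mitochondrial ribosomal proteins in 31 of 37, ribosomal proteins in 60 of 77 and DNA replication genes in 32 of 44. Against 0 h, the medians of these 5 lists were 0.32, 0.24, 0.40, 0.34 and -0.03 at 5 h and -0.58, -0.56, -0.44, -0.30 and -0.72 at 48 h. The 5 h and 48 h values share the 0 h libraries. *Psma7*, for example, was at 406, 604 and 188 CPM on average at 0, 5 and 48 h.

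Matrix genes went the other way, higher at 48 h than at 5 h in 25 of 36 and lower in 3. *Col1a1* averaged 3074, 1781 and 4674 CPM at 0, 5 and 48 h, and 48 h was above 5 h by 1.39 (SE 0.16, adjusted p = 1.16e-06). Interferon response genes were higher at 48 h in 12 of 20 and lower in 2, and lysosomal genes higher in 20 of 31 and lower in 4. Sterol synthesis genes were lower at 48 h than at 5 h in 16 of 20 and higher in none. Of 9 uptake and sensing genes, 5 were instead higher at 48 h than at 5 h and 2 lower, with *Scap*, *Srebf1* and *Mbtps1* higher by 0.80, 0.91 and 0.88.

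The largest single differences between 5 and 48 h included *Egr1*, a serum-response transcription factor, which averaged 117 CPM at 0 h, 5.91 CPM at 5 h and 107 CPM at 48 h, a difference of 4.18 (SE 0.20, adjusted p = 2.49e-10). *Ranbp3l* and *Ces2e* rose by 5.65 and 4.03 over that interval, *Pitpnc1*, a lipid transfer protein, by 3.35 and the corepressor gene *Tle2* by 3.31. *Prl2c2* averaged 82.7 CPM at 5 h and 5.44 CPM at 48 h, a difference of -3.91 (SE 0.15, adjusted p = 2.15e-11). *Wincr1* and *Arl5c* differed by -4.58 and -3.62. *Txnip* was lower at 48 h than at 5 h, a difference of -0.69 (SE 0.15, adjusted p = 0.000777).

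**Figure D4:**
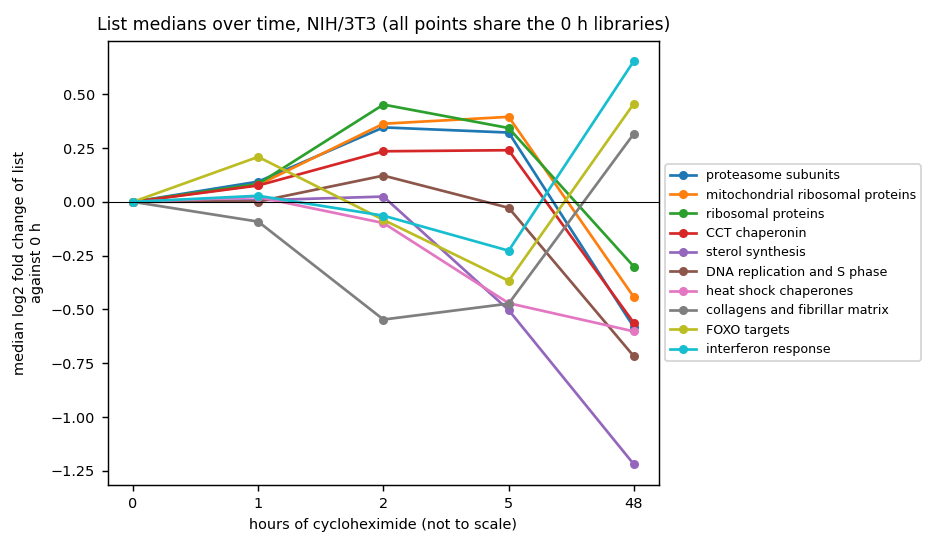
Median log2 fold change against 0 h of 10 gene lists at 1, 2, 5 and 48 h in NIH/3T3 cells, with hours on the x axis not drawn to scale; every point shares the 0 h libraries. Proteasome subunits, ribosomal proteins and CCT genes have positive medians at 5 h and negative medians at 48 h, and matrix, FOXO and interferon lists the reverse.

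The 48 h response was then compared with that of CGR8 stem cells, by testing the difference of the responses itself in all 30 libraries. It differed at 3849 of 17549 genes (21.9%), with 1717 more positive in CGR8 (9.78%) and 2132 more negative (12.1%). Ribosome biogenesis genes were more positive in CGR8 in 32 of 48 and more negative in none, with medians of -0.42 in NIH/3T3 and 0.05 in CGR8. DNA replication genes were more positive in CGR8 in 26 of 44 and more negative in none, with medians of -0.72 and -0.03. *Pcna* changed by -1.25 in NIH/3T3 and -0.03 in CGR8, a difference of 1.21 (SE 0.15, adjusted p = 9.07e-07). The difference was also positive in 10 of 18 heat shock chaperones, 6 of 8 CCT genes and 13 of 32 proteasome subunits, with none negative. It was positive in 12 of 20 sterol synthesis genes and negative in 1. Sterol synthesis had a negative median in both lines, -1.22 and -0.61.

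Interferon response genes were more negative in CGR8 in 10 of 15 and more positive in 1. Lysosomal genes were more negative in 12 of 31 and more positive in 1. Over all genes tested, 12.1% were more negative and 9.78% more positive. *Xaf1* rose by 1.53 in NIH/3T3 and changed by -1.58 in CGR8, a difference of -3.12 (SE 0.21, adjusted p = 2.8e-11). ATF4 programme genes were more negative in CGR8 in 11 of 34 and more positive in 5, with medians of -0.60 and -0.85. For p53 targets, with medians of 0.34 and 0.60, the difference was called in 10 of 22, 8 more positive in CGR8 and 2 more negative. In CGR8 the length bins gave medians of -0.05 in the shortest bin and 0.12 in the longest, a gap whose difference from that of NIH/3T3 was not tested.

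**Figure D5:**
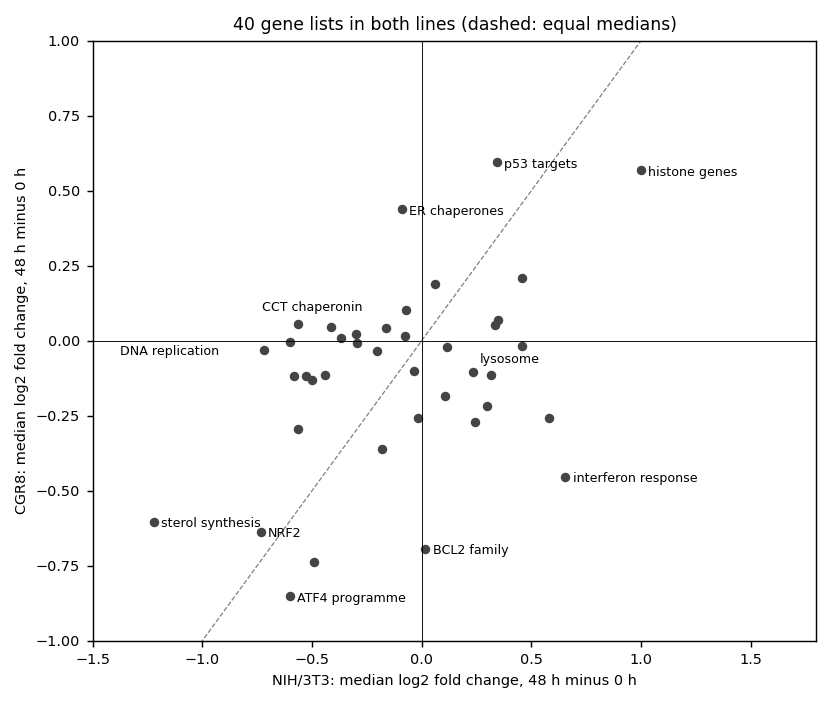
Median log2 fold change at 48 h against 0 h of 40 gene lists with at least 8 members tested in both lines, NIH/3T3 on the x axis and CGR8 on the y axis; each point is a list, and the dashed line marks equal medians. Sterol synthesis, NRF2 and ATF4 lists are negative in both lines, DNA replication and CCT lists lie left of 0 in NIH/3T3 and near 0 in CGR8, and the interferon response is positive in NIH/3T3 and negative in CGR8.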

How the data were processed

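mRNA was sequenced from NIH/3T3 and CGR8 cells at 5 times, 3 libraries each, with a stranded mRNA ligation kit per the labels' protocols. The authors deposited whole-number counts per gene and library. The submitters' processing notes name STAR, DESeq2 and GRCm39 without a role; the counting tool, its use of strand and the annotation release are not given in the sources used here. Of the 164 genes that could be named, 62 overlap a gene on the other strand, *Txnip*, *Gas1* and *Ogn* among them, and their reads may not be separable.

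Symbols were matched by Ensembl identifier to GENCODE M21, for 51880 of 57186 identifiers (90.7%). Groups were taken from the labels. Genes were filtered with filterByExpr (minimum count 10, minimum total 15), scaled by TMM and fitted with edgeR 4.0.16 in R 4.3.3, with 1 coefficient per time and no block. Benjamini-Hochberg adjustment covered the whole table of genes tested. Simulated data were also used to test the fitting, but no outcome is given here. No support is drawn from that test for the calls, the line difference or the removal of length and GC trends. Totals were 18216993 to 30503109 counts, and the number of libraries limits the precision. Replicates of a group differed beyond sampling noise (chi-square per degree of freedom 1.95 to 13.9).

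Named genes were the 12 largest called rises and falls at 10 CPM or more without overlap of libraries, the 10 largest at 100 CPM or more, 3 per list, any sterol, proteasome or collagen gene, and the 5 largest each way in the other comparisons; predicted genes were passed over, and some genes that meet the rule are not reported here. *Asns*, *Hspe1*, *Rfc3*, *Ctsf* and the cell type markers are named beyond this rule, chosen after their values were seen. The 44 lists hold 1120 genes of the table, of which 995 passed the filter; they and the comparison were chosen with earlier results of these data known. Transcript lengths are those of the longest coding transcript, or the longest where none is coding, in GENCODE M21 and were found for 13674 of 13941 genes. *Ctsf* and *Akr1c18*, with no count at 48 h and few at 0 h, are given no fold change. Alternatives were DESeq2 1.42.0, limma 3.58.1 (voom), other scalings and filters, fewer libraries, a replicate block and removal of length and GC trends.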

Additional observations from a re-analysis of the deposited data

Results flagged for a closer look

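The 48 h response differed between the lines at 3849 genes by the interaction test in edgeR. The genes below had among the largest called differences, CGR8 minus NIH/3T3 on the log2 scale, among genes of at least 10 CPM in some group and 1 CPM at some time in each line, with no overlap of 0 h and 48 h libraries in either line.

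5 genes were more negative in CGR8. *Fgf10* rose in NIH/3T3 from 3.09 to 15.3 CPM on average and fell in CGR8 from 3.34 to 0.244 CPM, a difference of -6.08 (SE 0.31, adjusted p = 2.86e-13). *Serpinb1a* went from 2.91 to 16.5 CPM in NIH/3T3 and from 7.68 to 2.93 CPM in CGR8, a difference of -3.92 (SE 0.23, adjusted p = 2.54e-12). *Aspa*, aspartoacylase, rose from 8.26 to 23.1 CPM in NIH/3T3 and fell from 0.681 to 0.128 CPM in CGR8, a difference of -3.87 (SE 0.37, adjusted p = 1.62e-08), and reached 1 CPM in CGR8 at 5 h. *Irgm1*, an interferon-induced GTPase, rose from 15.4 to 25.1 CPM in NIH/3T3 and fell from 4.43 to 0.708 CPM in CGR8, a difference of -3.37 (SE 0.20, adjusted p = 2.54e-12). *Ly6a*, the surface antigen Sca-1, fell from 13.4 to 0.348 CPM in CGR8 against 85.4 to 66.5 CPM in NIH/3T3, where the call was lost without any 1 of the 6 libraries, a difference of -4.91 (SE 0.36, adjusted p = 1.2e-10).

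The other 3 were more positive in CGR8. *Arl5c* differed by 2.52 (SE 0.41, adjusted p = 4.7e-05). *Gadd45g* rose from 0.942 to 6.09 CPM in CGR8 and fell from 71.9 to 43.2 CPM in NIH/3T3, a difference of 3.39 (SE 0.42, adjusted p = 1.13e-06). *Anxa8*, an annexin near 1 CPM in CGR8, differed by 2.71 (SE 0.29, adjusted p = 1.63e-07).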

How the results depend on the processing

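Counts of called genes stayed within 1.5 times the main value in 178 of 183 alternatives. The 5 others were the 2-fold counts with a mean of at least 5 CPM, 490 higher and 312 lower among fewer genes tested, and the line difference under voom with sample quality weights, 7622 genes, 3500 more positive and 4122 more negative in CGR8; the cause was not tested. Leaving out 1 library gave 6274 to 6717 genes called at 48 h against 0 h, 8379 to 8584 against 5 h and 3136 to 3798 for the line difference. With the replicate block the counts were 7308, 9152 and 3840. The labels do not say whether a letter links libraries of different times. Deviations of same-letter libraries of 0 and 48 h correlated at 0.0137 to 0.0431. There, 0 h replicate C was closest to 48 h replicate A, at 0.0367. Same-letter libraries of 5 and 48 h correlated at 0.0313 to 0.0492, and the highest value between unlike letters was 0.0185.

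List medians turned sign in autophagy (0.0381 with library size alone; -0.0792 to 0.00539 over libraries left out), respiratory chain subunits (0.000114 with library size alone, 0.0918 with length and GC trends removed), nonsense-mediated decay factors and clock genes (-0.0698 and -0.0598 with those trends removed), collagen processing (0.00571 with library size alone) and carboxylesterases (0.271 at 5 CPM or more). Medians nearest 0 also did in NF-kB genes (-0.0629 to 0.0599 over libraries left out; 0.0565 with library size alone; 0.00512 to 0.0435 with voom, either filter or the compared groups alone), the BCL2 family (-0.0273 to 0.0603; -0.121 at 5 CPM or more) and LXR targets (-0.0433 to 0.0719). The cause was not tested. Some medians further from 0 changed in size. With length and GC trends removed, that of ribosomal proteins went from -0.30 to -0.11. Those of collagens and matrix and of YAP targets went from 0.32 and 0.30 to 0.07 and 0.04. That of sterol synthesis went from -1.22 to -1.20. Ribosomal protein calls ranged from 6 to 68 lower across alternatives. Single genes kept their direction in all alternatives, *Egr1* gained a call in 1 alternative, and in 42 instances a call was lost, most often for *Aldoc*, *Smg1*, *Rps10* and *Ly6a*. Voom and a fit of only the compared groups called more genes, 9745 and 9086. The low counts of genes under 1 CPM limit their fold changes.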
